A study of Homo sapiens with 4 samples.

Results

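The genes described here are 43 DNA damage repair and checkpoint genes, taken by name from a fixed list, of 60544 genes in a deposited count table from METTL3 knockdown in PC3 cells. The list holds 14 genes of homologous recombination, 7 of the Fanconi anaemia pathway, 7 of end joining, 2 of mismatch repair, 5 of nucleotide excision repair, 4 of base excision and single-strand break repair, and 4 checkpoint kinases. Each name matched 1 row of the table, and all 43 passed the filter on low counts that left 16802 genes for testing. PC3 is an established human prostate cancer line. The 2 libraries labelled shNC served as control and the 2 labelled sh812 as METTL3 knockdown, with the same medium and poly(A) RNA method in both arms, and the labels name 1 knockdown construct and no rescue. The labels do not say whether replicates were separate cultures, so p-values measure the spread between these libraries, which may be technical.

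DNA repair is divided among pathways that recognise different lesions. Homologous recombination copies the intact sister chromatid across a double-strand break, end joining ligates broken ends directly, and the Fanconi anaemia proteins unhook crosslinks between strands. Mismatch, nucleotide excision and base excision repair replace wrong, bulky or chemically altered bases, while ATM and ATR signal damage through CHEK2 and CHEK1. METTL3 is the catalytic subunit of the enzyme that writes N6-methyladenosine on messenger RNA, and the comparison asks how the messages of these repair genes stood after its loss.

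The libraries held between 31450648 and 37041330 counts, of which the 43 genes took 0.389% to 0.407%. METTL3 had 44.4 and 43.6 CPM (counts relative to library size, scaled with TMM factors) in shNC and 7.66 and 8.75 CPM in sh812, so the targeted transcript was lower in both knockdown libraries. All 6 epithelial markers examined were above 3 counts in every library, and their summed level was 822 to 926 CPM in shNC and 965 to 1020 CPM in sh812. Of the 5 markers of androgen-dependent prostate, KLK3 and KLK2 were at 0 counts in every library, and the summed level of the list was 28.8 to 30.2 CPM in shNC and 11.5 to 13.9 CPM in sh812. The 6 immune markers summed to 0.684 to 1.13 CPM, with CD3E at 0 in every library. The 4 endothelial markers summed to 41.6 to 50.4 CPM, with VWF and CDH5 at 0 in 1 library of each group, and the 5 fibroblast markers summed to 47.7 to 54.0 CPM. The part of these shifts in the results below was not tested.

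A gene was called when its adjusted p (edgeR quasi-likelihood test, Benjamini-Hochberg over all genes) was below 0.05, and 4 of the 43 repair genes were. CHEK1, XRCC5 and XRCC3 were higher in sh812 and TP53BP1 was lower. The share called, 9.3%, lay near the background, since 10.8% of all genes tested were called. In each direction the background was 5.43% higher and 5.42% lower, and 12.9% of genes within the repair genes' range of mean CPM were called. The low end of that range was set by RAD50, with means of 1.09 CPM in shNC and 0.976 CPM in sh812. The next gene, RAD52, had 5.58 and 4.53 CPM, so the range takes in genes with fewer counts than the other 42. The median log2 fold change was -0.004 over the 43 genes and -0.006 over all genes tested, with 21 repair genes positive and 22 negative. No called repair gene changed by 2-fold, and the differences ran from -0.37 in ERCC4 to 0.38 in XRCC3. With library size as the only scaling, calls over the whole table split into 561 higher and 1328 lower, against 912 and 910, and the median difference over the table was -0.05 in log2. An unadjusted p under 0.05 was reached by 9 of the 43, against 24.8% of all genes tested.

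The intervals describe how closely these libraries fix each difference. They measure the spread between these libraries, which may be technical, and hold for each gene taken by itself. They cannot say what change other cultures or another construct would show. The 95% interval of the log2 fold change lay within -0.5 to 0.5, or 70.7% to 141% of the control level, in 39 of the 43 genes. The 4 exceptions were RAD50, RAD52, XRCC3 and ERCC4, and the half-width of the interval had a median of 0.19. Depth was high for most genes, and 41 had at least 200 counts in every library. RAD50 and RAD52 were the other 2.

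Promoter sequences are shown for the called genes that have an entry in the RefSeq table (GRCh38.p14) to show the DNA before those starts. Each is the part of the 250 bases before the most upstream RefSeq start that lies outside the gene's own GENCODE 29 exons, 5′ to 3′ on the gene's strand, and capitals mark CCAAT or its reverse complement ATTGG. The XRCC3 stretch is chr14:103715505-103715701 on the minus strand and ends 53 bases before the start. The CHEK1 stretch is chr11:125626035-125626223 on the plus strand and ends at the RefSeq start. It lies inside the GENCODE 29 gene, which starts farther upstream at 125625136, and between its exons. The TP53BP1 stretch is chr15:43510729-43510890 on the minus strand and ends 88 bases before the start.
XRCC3: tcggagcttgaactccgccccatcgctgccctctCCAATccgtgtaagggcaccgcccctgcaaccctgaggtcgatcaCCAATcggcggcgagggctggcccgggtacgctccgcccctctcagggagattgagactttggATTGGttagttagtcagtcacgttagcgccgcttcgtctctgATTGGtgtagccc
CHEK1: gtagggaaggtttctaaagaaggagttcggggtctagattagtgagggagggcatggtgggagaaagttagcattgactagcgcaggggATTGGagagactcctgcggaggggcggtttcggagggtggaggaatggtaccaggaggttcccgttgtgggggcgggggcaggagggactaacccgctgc
TP53BP1: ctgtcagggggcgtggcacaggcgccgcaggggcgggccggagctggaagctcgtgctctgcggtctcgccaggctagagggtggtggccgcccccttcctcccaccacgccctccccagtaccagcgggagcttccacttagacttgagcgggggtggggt

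The XRCC3 stretch holds 4 CCAAT words, that of CHEK1 holds 1 and that of TP53BP1 holds 0. Over the full 250 bases the counts were 5, 1 and 1. A CCAAT word on either strand stood in at least 1 window of 20 of the 39 repair genes that have an entry, 51.3%, in 41.3% of 11358 tested genes with an entry and in 32.0% of all 35116 windows. An E2F-type word (TTTCCCGC, TTTGGCGC, TTTGCCGC or TTTCGCGC, either strand, overlaps counted) was found in FANCA, FANCC, PMS2 and XPC, 10.3% of the 39, against 5.48% of tested genes and 2.79% of windows. None of these 4 genes was called, where 3 of the other 35 and 10.8% of all genes tested were. Their median log2 fold change was -0.047, against -0.004 in the other 35. A group of 4 genes is too small to read either value as a difference. NBN, FANCI, XRCC5 and PRKDC had no entry. The matches describe these letters only.

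Levels of the repair messages differed widely in the control cells, as CPM per kilobase of transcript. XRCC6 and XRCC5, the subunits of the Ku heterodimer that caps broken ends, stood at 198 and 167 CPM per kilobase, and PARP1, the sensor of single-strand breaks, at 189. APEX1, the endonuclease that cuts at abasic sites, stood at 162. A gap separated these 4 from the next gene, NBN, a subunit of the MRE11 complex, at 37.3. In the middle of the order CHEK1 stood at 17.4, MSH6 at 15.6, FANCD2 at 9.51 and BRCA1 at 4.95. At the low end ERCC4 stood at 1.94, BRCA2 at 1.34, RAD51D at 1.14 and RAD50 at 0.131. The order of neighbours is loose where the 2 control libraries spread, as for BRCA2, whose level overlapped that of RAD51D between libraries. It also depends on the transcript chosen, which for RAD51D was 9988 bases long. A shorter transcript would place RAD51D higher.

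**Figure D1:**
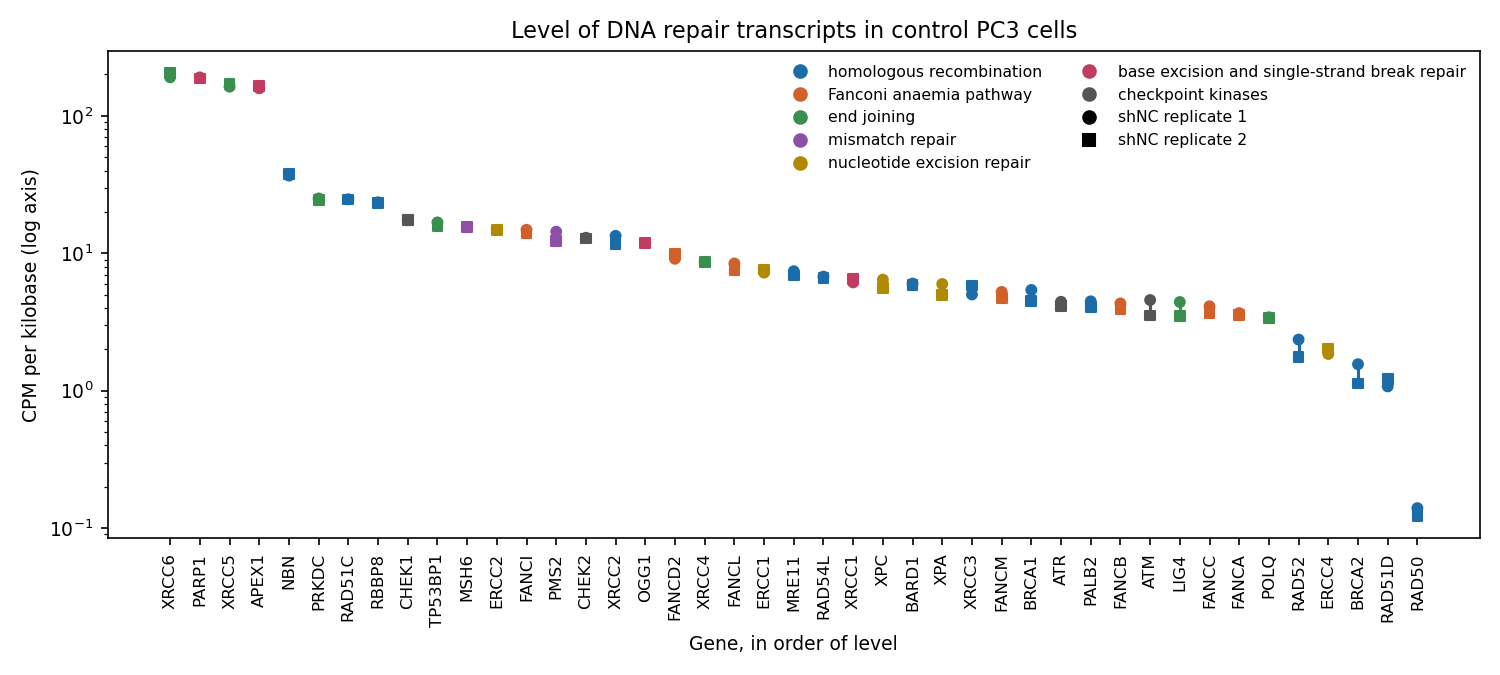
Level of the 43 repair genes in the 2 shNC libraries, as CPM per kilobase of transcript on a log axis, ordered by the mean and coloured by pathway (circle, replicate 1; square, replicate 2). XRCC6, PARP1, XRCC5 and APEX1 lie above 160 and RAD50 lies alone near 0.13.

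The value of RAD50, the ATPase of the MRE11 complex, needs its annotation beside it. It had 44 and 32 counts in shNC and 43 and 26 in sh812, while its partners had 1503 to 1936 counts (MRE11) and 5580 to 6828 counts (NBN). In GENCODE 29, 79.7% of its exon bases are shared with AC116366.3 on the same strand, a gene whose identifier is listed at 0 counts in all 4 libraries. How reads in shared exons were assigned is not stated, so the table gives no usable level for RAD50. Its log2 fold change of -0.16 has a 95% interval from -1.05 to 0.73. In all, 27 of the 43 genes share exon bases with another annotated gene, 24 of them with an opposite-strand neighbour. Whether the counting used strand is not given in the sources used here.

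Homologous recombination genes were led by XRCC3, which acts in strand exchange, the only called gene among the 14, where 10.8% is the background for calls. XRCC3 (ENSG00000126215, chromosome 14 from 103697609 to 103715504, GENCODE 29) had 15.1 and 17.6 CPM in shNC and 23.1 and 19.4 CPM in sh812. Both knockdown libraries lay above both controls, and the replicates of each group also differed from each other. The difference was 0.38 on the log2 scale (SE 0.12, edgeR adjusted p = 0.0359). The call was lost without shNC replicate 1 (0.27, adjusted p = 0.164), without sh812 replicate 1 (0.25, adjusted p = 0.473), with library size alone (adjusted p = 0.0704) and in DESeq2 (adjusted p = 0.106). On the opposite strand KLC1 covers 76.7% of its exon bases, and reads from KLC1 cannot be told apart from its own if strand was not used. KLC1 had 873 and 659 raw counts in shNC and 727 and 724 in sh812. Its part in the value of XRCC3 was not tested.

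BRCA1 and BRCA2, the tumour suppressors of this pathway, were not called. BRCA1 had 39.3 and 32.6 CPM in shNC and 38.0 and 34.2 CPM in sh812. The knockdown values lay between the control values. Its log2 fold change was 0.003, with a 95% interval from -0.19 to 0.20. BRCA2 had 18.7 and 13.5 CPM in shNC and 15.4 and 15.3 CPM in sh812. Here too the groups overlapped, and the 2 controls differed by more than the groups did. Its log2 fold change was -0.08, with an interval from -0.35 to 0.19. BARD1, the partner of BRCA1, and PALB2, which joins BRCA1 to BRCA2, had log2 fold changes of -0.07 and 0.08.

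The other recombination genes were not called. RAD54L, a DNA motor protein, had 21.0 and 20.5 CPM in shNC and 24.6 and 21.8 CPM in sh812, so that the groups did not overlap. The difference was 0.16 in log2 (SE 0.10, edgeR adjusted p = 0.353). RAD52, which anneals single strands, had few counts, at 6.38 and 4.78 CPM in shNC and 5.04 and 4.02 CPM in sh812, with overlapping groups and a log2 fold change of -0.31 (SE 0.19). RAD51C, RAD51D and XRCC2, relatives of XRCC3, had log2 fold changes of 0.07, -0.14 and -0.06. The end-resection genes MRE11, NBN and RBBP8 had -0.02, 0.10 and 0.01. Groups of libraries did not overlap in 4 of the 14 genes, all with sh812 above shNC, where 53.6% of all genes tested had groups apart.

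In the Fanconi anaemia pathway 0 of 7 genes were called by edgeR or DESeq2, where edgeR called 10.8% of all genes. FANCD2 alone had an unadjusted p under 0.05, which 24.8% of all genes had. FANCD2, which is ubiquitinated with FANCI at stalled forks, had 47.6 and 51.6 CPM in shNC and 56.8 and 54.4 CPM in sh812. Both knockdown libraries lay above both controls. On the log2 scale FANCD2 differed by 0.17 (SE 0.08, edgeR adjusted p = 0.183), and it passed the threshold without shNC replicate 2 (0.23, adjusted p = 0.037) and with the length trend removed (0.23, adjusted p = 0.0451). FANCI, its partner, had 69.8 and 66.3 CPM in shNC and 66.1 CPM in both sh812 libraries, for a log2 fold change of -0.04, with both knockdown values just below the controls. The core complex and anchor genes FANCA, FANCB, FANCC, FANCL and FANCM ran from -0.17 in FANCB to 0.05 in FANCL.

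End joining held 2 of the 4 called genes among its 7, and they moved in opposite directions. With 7 genes, a share of 28.6% rests on 2 calls, and the background over all genes tested was 10.8%. XRCC5 (ENSG00000079246, chromosome 2 from 216107464 to 216206303), which encodes the Ku80 subunit, had 613 and 641 CPM in shNC and 736 and 706 CPM in sh812. The groups were clearly apart, and each pair of replicates differed by less than the groups did. It rose by 15.0%, or 0.20 in log2 (SE 0.06, edgeR adjusted p = 0.0218). With 1 knockdown library it lost the call, at an adjusted p of 0.379 without sh812 replicate 1 and 0.153 without sh812 replicate 2. XRCC6, which encodes the Ku70 subunit, had 517 and 556 CPM in shNC and 566 and 542 CPM in sh812. These groups overlapped, and its log2 fold change was 0.05, with a 95% interval from -0.07 to 0.17.

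TP53BP1 (ENSG00000067369, chromosome 15 from 43403061 to 43510728) encodes the chromatin reader that shields ends from resection, and it was the only called gene that fell. It had 106 and 100 CPM in shNC and 92.2 and 86.3 CPM in sh812. Both knockdown libraries lay below both controls. On the log2 scale TP53BP1 changed by -0.21 (SE 0.07, edgeR adjusted p = 0.0407). It was not called in DESeq2 (adjusted p = 0.065), with the length trend removed (-0.13, adjusted p = 0.187), or without shNC replicate 1 (0.0884), sh812 replicate 1 (0.163) or sh812 replicate 2 (0.438). On the opposite strand TUBGCP4 covers 28.7% of its exon bases. TUBGCP4 had 2293 and 1769 raw counts in shNC and 1885 and 1826 in sh812. Its part in the value of TP53BP1 was not tested.

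The kinase gene PRKDC, whose product is the catalytic subunit of DNA-dependent protein kinase, had 338 and 329 CPM in shNC and 362 and 337 CPM in sh812. The groups overlapped, and the log2 fold change was 0.07, with a 95% interval from -0.05 to 0.19. It was called only with the length and GC trends removed together (0.17, adjusted p = 0.0452 in edgeR). LIG4, the ligase of the pathway, had 18.5 and 14.6 CPM in shNC and 14.6 and 13.8 CPM in sh812. The first control library alone was high. Without shNC replicate 2, its log2 fold change of -0.22 became -0.37 (adjusted p = 0.0278 in edgeR), and without shNC replicate 1 it was -0.04. XRCC4, which stabilises LIG4, had a log2 fold change of 0.14, and POLQ, the polymerase of microhomology-mediated joining, had one of -0.17.

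MSH6, a mismatch recognition protein, was close to the threshold. It had 116 and 117 CPM in shNC and 135 and 127 CPM in sh812. Both knockdown libraries lay above the controls, which differed little from each other. On the log2 scale MSH6 differed by 0.18 (SE 0.06, edgeR adjusted p = 0.0739), and it passed without shNC replicate 2 (0.19, adjusted p = 0.0179) and with the length trend removed (0.26, adjusted p = 0.00505). PMS2 had a log2 fold change of -0.07. It has pseudogene copies, so its count is uncertain.

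Among nucleotide excision repair genes 0 of 5 were called by edgeR or DESeq2, where edgeR called 10.8% of all genes. ERCC4 alone had an unadjusted p under 0.05, which 24.8% of all genes had. ERCC4, which encodes the XPF nuclease subunit, had 12.5 and 13.7 CPM in shNC and 10.1 CPM in both sh812 libraries. Both knockdown libraries lay below both controls. On the log2 scale ERCC4 differed by -0.37 (SE 0.13, edgeR adjusted p = 0.0607), and it passed with library size alone (-0.42, adjusted p = 0.0382) and without shNC replicate 1 (-0.44, adjusted p = 0.0376). ERCC1, the partner subunit, had 27.7 and 29.2 CPM in shNC and 31.7 and 29.3 CPM in sh812, for a log2 fold change of 0.10. The lesion-binding genes XPA and XPC both had -0.11, and the helicase gene ERCC2 had -0.004.

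In base excision and single-strand break repair 0 of 4 genes were called by edgeR, while DESeq2 called PARP1, and 2 had an unadjusted p under 0.05, against backgrounds of 10.8% and 24.8% in edgeR. PARP1 had 754 and 739 CPM in shNC and 687 and 660 CPM in sh812, so both knockdown libraries lay below both controls. The difference of PARP1 was -0.15 in log2 (SE 0.06, edgeR adjusted p = 0.0863). It passed the threshold in DESeq2 (adjusted p = 0.0417), when low-count genes were kept (0.0407), with library size alone (0.0172), without shNC replicate 1 (0.0232) and without shNC replicate 2 (0.00282). APEX1 had 235 and 246 CPM in shNC and 276 and 260 CPM in sh812, above the controls in both knockdown libraries. The difference of APEX1 was 0.16 in log2 (SE 0.06, edgeR adjusted p = 0.0871), and it passed only without shNC replicate 2 (0.20, adjusted p = 0.00221). XRCC1, the scaffold of single-strand break repair, had 0.14, and the glycosylase gene OGG1 had 0.11. Groups did not overlap in any of the 4 genes, where 53.6% of all genes tested had groups apart.

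CHEK1, the effector kinase downstream of ATR, had the smallest p-value of the 43 genes. CHEK1 (ENSG00000149554, chromosome 11 from 125625136 to 125676255) had 72.2 and 72.6 CPM in shNC and 84.2 and 88.0 CPM in sh812. The controls were nearly equal and both knockdown libraries lay above them. It rose by 18.9%, or 0.25 in log2 (SE 0.07, edgeR adjusted p = 0.0181). The call was lost with library size alone (adjusted p = 0.0534), without sh812 replicate 1 (0.12) and without sh812 replicate 2 (0.271).

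The other checkpoint kinases were not called. ATM, which responds to double-strand breaks, had 60.0 and 46.3 CPM in shNC and 47.6 and 45.9 CPM in sh812. Only shNC replicate 1 was high, and the second control lay between the knockdown libraries. ATM differed by -0.19 in log2 (SE 0.09, edgeR adjusted p = 0.215), and this value was -0.36 (adjusted p = 0.000314) without shNC replicate 2 and 0.01 (adjusted p = 0.956) without shNC replicate 1. ATR, which responds to single-stranded DNA, had 36.6 and 34.1 CPM in shNC and 34.2 and 31.5 CPM in sh812. Its groups overlapped, and its log2 fold change was -0.11, with a 95% interval from -0.29 to 0.08. CHEK2, the effector of ATM, had a log2 fold change of 0.07 with sh812 above shNC in both libraries, and its pseudogene copies make the count uncertain.

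**Figure D2:**
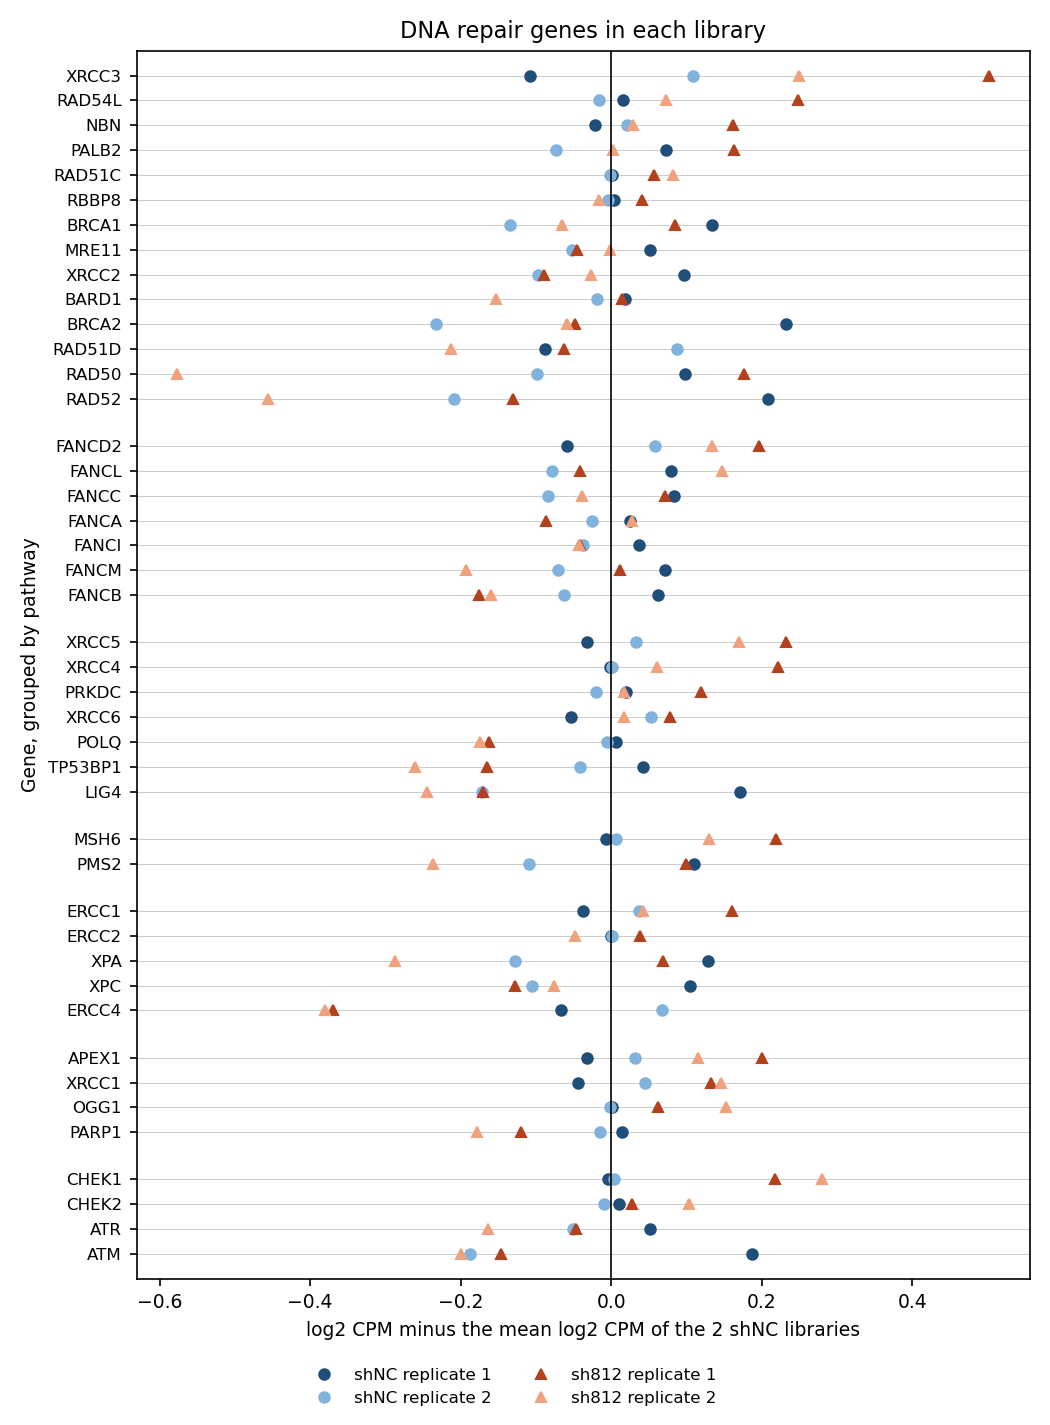
Each of the 43 genes in the 4 libraries, as log2 CPM minus the mean log2 CPM of the 2 shNC libraries (circles, shNC; triangles, sh812; dark, replicate 1; light, replicate 2). Groups lie apart in 20 of the 43 genes, 46.5%, against 53.6% of all genes tested. The sh812 values are above in 14 of them and below in 6. Examples are CHEK1, XRCC5, XRCC3 and MSH6, with both sh812 triangles right of both shNC circles, and TP53BP1, ERCC4 and PARP1, with both left. The shNC circles of BRCA2 and ATM are wide apart.

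**Figure D3:**
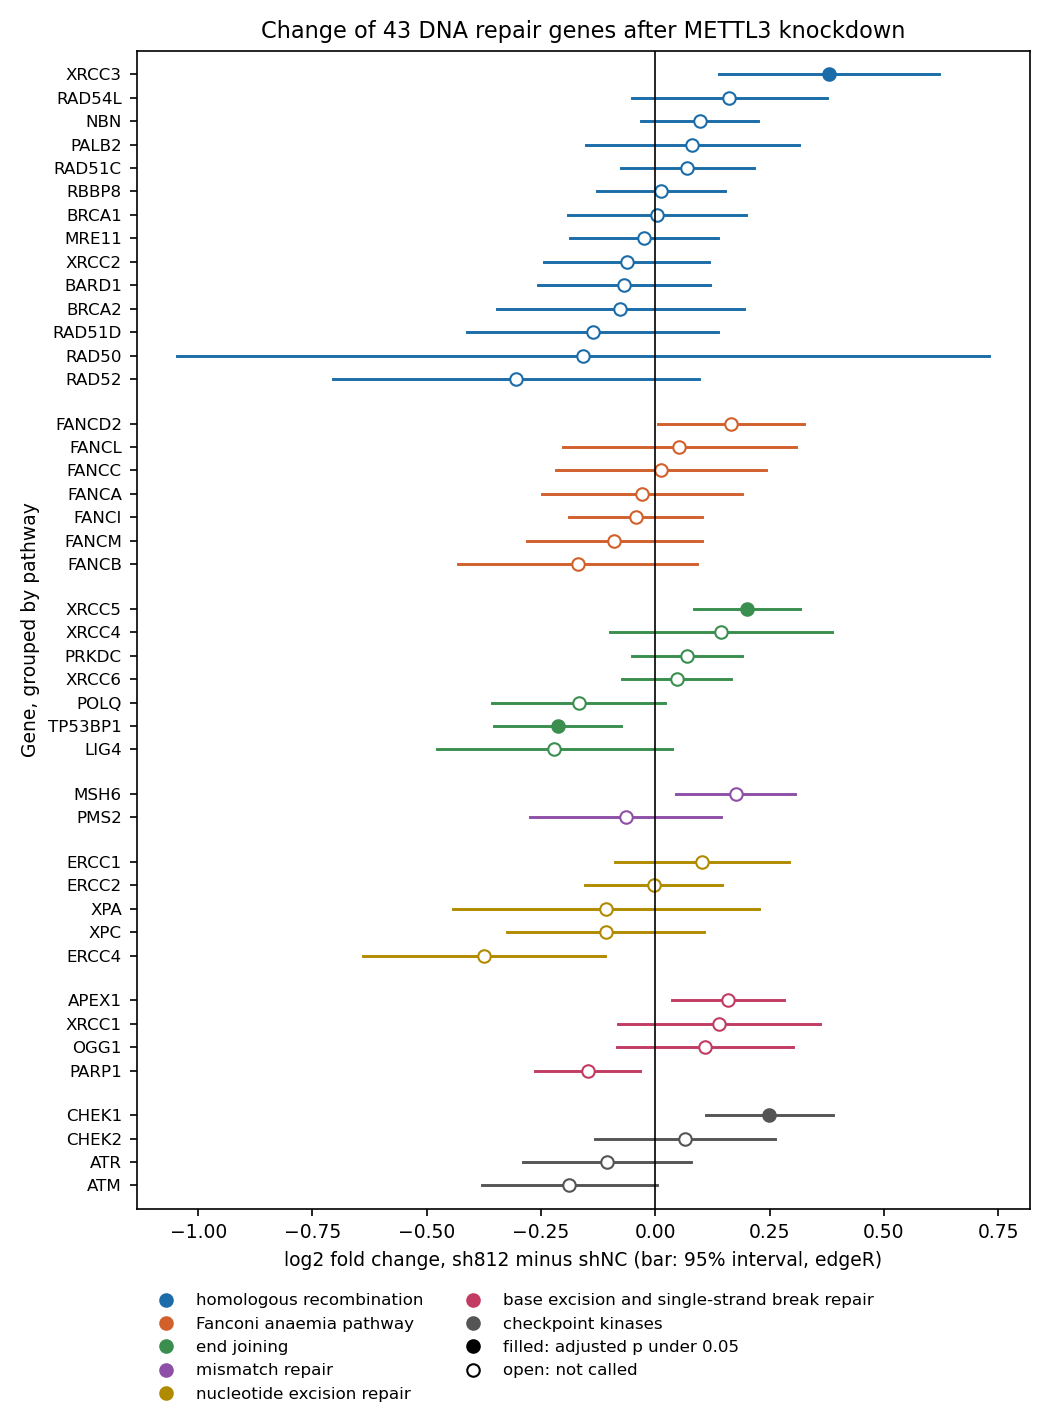
Log2 fold change of sh812 minus shNC for the 43 genes, grouped by pathway, with bars for the 95% interval from edgeR and filled points for an adjusted p under 0.05. The 4 filled points are XRCC3 at 0.38, XRCC5 at 0.20, TP53BP1 at -0.21 and CHEK1 at 0.25.

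Partner messages did not always shift together. The ratio of 2 genes within a library does not depend on how libraries are scaled, and 9 pairs of proteins that bind or signal to each other were compared, chosen with the values known. With 2 libraries against 2, an exact two-sided permutation test cannot go below p = 0.333, so these ratios are descriptions. As log2 ratios relative to the shNC mean, XRCC5 over XRCC6 stood at 0.02 and -0.02 in shNC and 0.15 in both sh812 libraries. ERCC1 over ERCC4 stood at 0.03 and -0.03 in shNC and 0.53 and 0.42 in sh812. FANCD2 over FANCI stood at -0.10 and 0.10 in shNC and 0.24 and 0.18 in sh812. In these 3 pairs the first gene gained on the second in both knockdown libraries.

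Of the other pairs, XRCC4 over LIG4 stood at -0.17 and 0.17 in shNC and 0.39 and 0.31 in sh812. ATR over CHEK1 stood at 0.06 and -0.06 in shNC and -0.27 and -0.44 in sh812, the only pair of the 9 with sh812 wholly below shNC. The ratios of BRCA1 to BARD1, BRCA2 to PALB2, MRE11 to NBN and ATM to CHEK2 overlapped between groups. Among single genes tested, 53.6% had groups apart, and no such share was computed for ratios of other pairs. With the trend on transcript length removed, the fitted difference was 0.20 for XRCC5 against XRCC6, 0.43 for ERCC1 against ERCC4 and -0.31 for ATR against CHEK1, against 0.15, 0.48 and -0.35 without that step. For XRCC4 against LIG4 it was 0.25 against 0.36. Leaving out a control library moved some pairs further: without shNC replicate 1, XRCC4 against LIG4 stood at 0.18 and FANCD2 against FANCI at 0.11, and leaving out shNC replicate 2 instead gave 0.52 and 0.30, where all libraries gave 0.36 and 0.21.

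**Figure D4:**
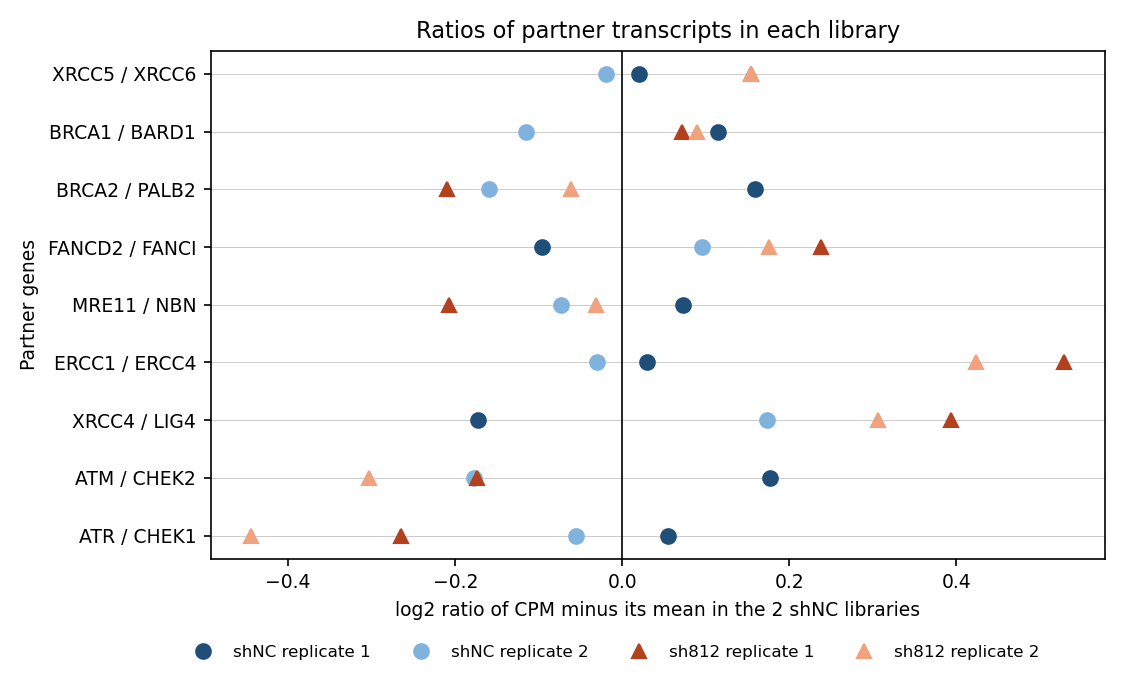
Log2 ratio of CPM of 9 partner pairs in each library, minus its mean in the 2 shNC libraries (circles, shNC; triangles, sh812). The groups are apart for XRCC5 / XRCC6, FANCD2 / FANCI, ERCC1 / ERCC4, XRCC4 / LIG4 and ATR / CHEK1, and overlap for the other 4 pairs; both sh812 points of XRCC5 / XRCC6 coincide at 0.15.

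The 43 repair genes had a median transcript of 4122 bases, against 2787 bases over all genes tested. The median was 3216 bases over protein-coding genes tested and 3068 over genes in the repair genes' CPM range. It was 2890.5 bases over the other repair genes described below. By pathway, medians of those other genes ran from 2107 bases in end joining to 5317 in translesion synthesis and direct reversal. Within the 43 genes they ran from 2511 bases in base excision and single-strand break repair to 6201 in checkpoint kinases. Long transcripts are therefore not particular to these 43 genes. Length moved with the differences. Across the 43 genes the Spearman correlation of transcript length with the log2 fold change was -0.34, and it was -0.30 across 13264 genes in the same CPM range. Genes share their libraries and are not independent replicates, so these values describe the libraries. Of the 21 repair genes longer than their own median of 4122 bases, 14 were negative, with a median log2 fold change of -0.068. Of the 22 at or under that length 14 were positive, with a median of 0.058. Control libraries also differed along length: the correlation of length with shNC replicate 2 minus replicate 1 was -0.28 across the 13264 genes and -0.14 across the 43. For the sh812 replicates the same correlations were 0.04 and -0.11. In 19 of the 43 genes the controls differed from each other by more than the groups did. That sets single libraries against groups of 2 libraries, and no such share was computed over all genes tested. The count therefore cannot say whether the controls were unusually far apart in the repair genes. Among the 19 were BRCA1, BRCA2, LIG4 and ATM.

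With each library's trend on length removed, 5 repair genes were called higher and 0 lower by edgeR, against 3 and 1 without that step. CHEK1, XRCC5 and XRCC3 were among the 5, FANCD2 and MSH6 were added, and TP53BP1 was not called. In that fit 9.88% of all genes were called and 11.6% of the repair genes. The log2 fold change of BRCA2 went from -0.08 to 0.03, and the median of the 43 genes from -0.004 to 0.026. The word GGACT, the letters most often methylated by the METTL3 complex, occurred at a median of 0.74 per kilobase in the repair transcripts and 0.92 per kilobase in all genes tested.

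**Figure D5:**
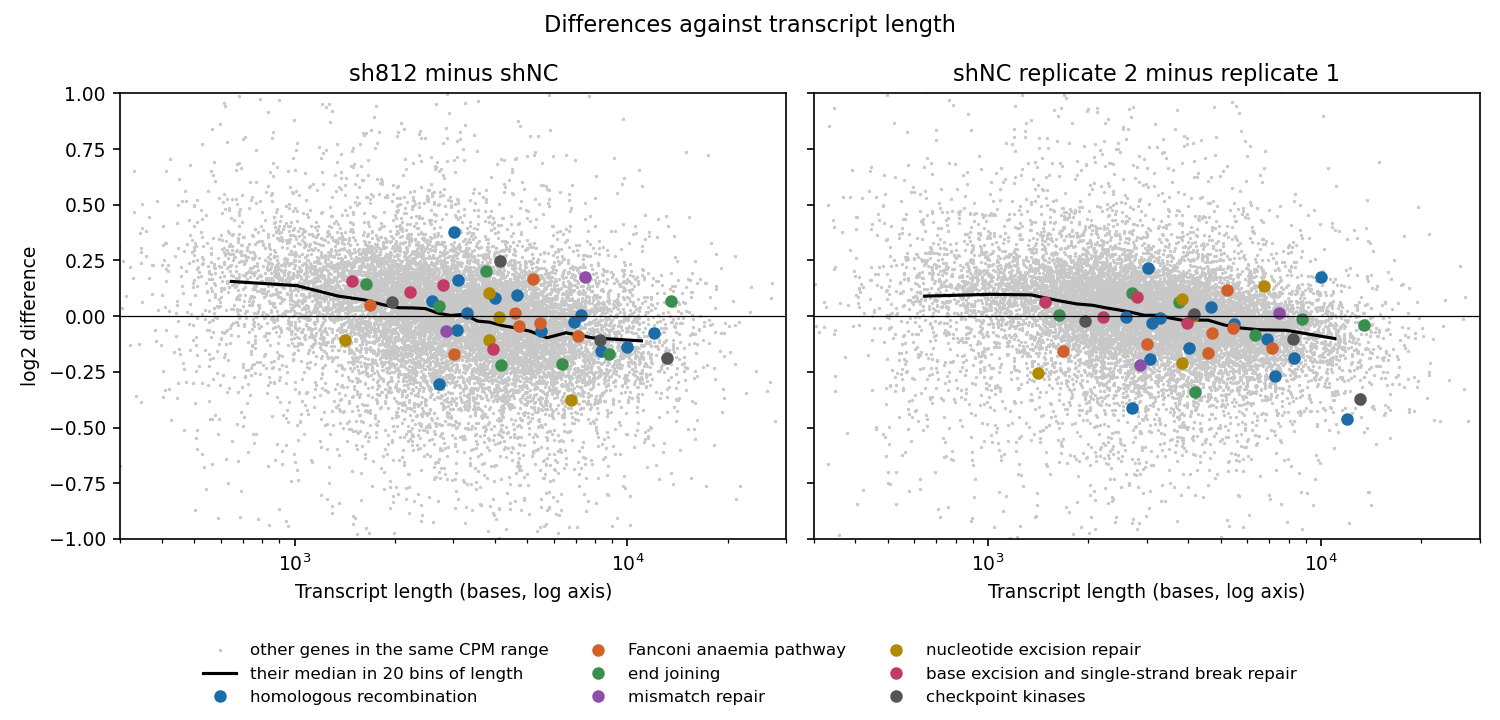
Log2 difference against transcript length (log axis) for sh812 minus shNC (left) and shNC replicate 2 minus replicate 1 (right), with the repair genes coloured by pathway, all genes in their CPM range in grey and the median of these in 20 bins of length as a line (points beyond -1 or 1 not shown). The line falls with length in both panels, and BRCA2 and ATM lie at the lower right of the control panel.

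Other genes of the same pathways, 120 listed by pathway, gave 10 called higher and 1 lower of 118 tested, 9.32% against the background of 10.8%. Over all genes tested, 5.43% were called higher and 5.42% lower. The median log2 fold change of these other repair genes was 0.068, with 81 positive and 37 negative. Over all genes tested it was -0.006, with 8216 positive and 8557 negative. By pathway the calls were 2 higher of 28 in recombination, 1 higher of 12 in the Fanconi group, 0 of 10 in end joining, 0 of 5 in mismatch repair, 2 higher of 15 in nucleotide excision, 2 higher of 21 in base excision, 2 higher and 1 lower of 16 in checkpoint signalling and 1 higher of 11 in translesion synthesis and direct reversal. The 10 higher genes had a median transcript of 1648 bases and the 107 not called one of 2982 bases.

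UNG, the glycosylase that removes uracil from DNA, had the smallest p-value of these. It had 122 and 128 CPM in shNC and 164 and 169 CPM in sh812, with the groups well apart, and rose by 0.41 in log2 (SE 0.06, edgeR adjusted p = 8.37e-05). RPA3, the small subunit of the single-strand binding protein, had 36.6 and 40.5 CPM in shNC and 49.0 and 50.5 CPM in sh812. RPA3 rose by 0.37 in log2 (SE 0.08, edgeR adjusted p = 0.0046) and lost the call without sh812 replicate 2 (adjusted p = 0.0756). CENPX and CETN2, subunits of the FANCM-binding histone-fold complex and of the XPC complex, had log2 fold changes of 0.32 and 0.29, and both were higher in each knockdown library. With the length trend removed CENPX was at 0.18 (edgeR adjusted p = 0.0409), and CETN2 lost the call without sh812 replicate 2 (adjusted p = 0.056). CDC25A, the phosphatase that CHEK1 restrains, had 60.4 and 59.8 CPM in shNC and 77.0 and 70.8 CPM in sh812, a rise of 0.30 in log2 (SE 0.07, edgeR adjusted p = 0.00882) that lost the call without sh812 replicate 1 (0.24, adjusted p = 0.258). ALKBH2, H2AX and NTHL1, which reverse alkylation, mark damaged chromatin and remove oxidised pyrimidines, had 0.33, 0.23 and 0.36, and each lost its call with the length trend removed (adjusted p = 0.0728, 0.081 and 0.141 in edgeR). In all, 5, 6 and 6 of their 14 alternatives ended the call. Each lost it without shNC replicate 1 (adjusted p = 0.075, 0.149 and 0.132), where H2AX stood at 0.14, and without sh812 replicate 1 (0.158, 0.233 and 0.407). ALKBH2 and H2AX also lost it without sh812 replicate 2 (0.0825 and 0.185). MDC1, a scaffold at marked chromatin and the single lower gene, had 68.6 and 66.4 CPM in shNC and 56.6 and 58.0 CPM in sh812. It changed by -0.24 in log2 (SE 0.07, edgeR adjusted p = 0.0334) and was not called in DESeq2 or with the length trend removed.

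Cell cycle genes stood beside these changes, since many repair genes peak in S phase. Of 26 S phase genes 4 were called higher and 1 lower, with a median log2 fold change of 0.11, and of 19 G2/M genes tested 3 were called higher and 0 lower, with a median of 0.13. The shares called were 19.2% and 15.8%, against 10.8% of all genes tested and 12.9% of genes in the repair genes' CPM range, and the median over all genes was -0.006. HELLS was higher (0.47, adjusted p = 0.0021 in edgeR) and MCM10 lower (-0.42, adjusted p = 0.00337) in the first list, and CDC20 was higher in the second (0.25, adjusted p = 0.00771). Of 17 damage-response target genes, 0 were called higher and 2 lower, a share of 11.8% near the background of 10.8%. These were SESN2 at -0.41 (adjusted p = 0.0238 in edgeR) and TNFRSF10B at -0.18 (adjusted p = 0.0495). The part of cell cycle state in the levels of repair genes was not tested.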

How the data were processed

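Poly(A) RNA of 4 PC3 libraries was sequenced as paired reads of 150 bases from strand-marking (dUTP) libraries, per the labels' protocols. The authors deposited 1 table of raw read counts per gene. Per the submitters' processing notes, fastp, STAR 2.7.1a, featureCounts, DESeq2 and the build hg38 were used; the annotation release, the strand setting and whether reads or pairs were counted are not given in the sources used here. Whether a count is a molecule is unknown, since no molecular identifiers are named.

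From the counts, sh812 was compared with shNC in edgeR 4.0.16 (R 4.3.3; filterByExpr, TMM, glmQLFit, glmQLFTest, 4 libraries, no covariate, prior count 0.125), with Benjamini-Hochberg adjustment over 16802 genes and a threshold of 0.05. SE and 95% intervals come from the quasi-likelihood F statistic. Replicates differed by more than sampling noise (chi-square per gene 8.43 in shNC and 4.51 in sh812). Gene positions, exon overlaps and transcript lengths come from GENCODE 29 and promoters from RefSeq. Values by library were given in full for the called genes, the 6 uncalled ones with the smallest p-values and 10 fixed by name, some of them in both sets; values of any other gene were chosen after they were seen. The members, lists and tests were chosen with earlier results of these data known. Alternatives were RLE, upper quartile and no scaling factors, 2 other filters, DESeq2 1.42.0, limma-voom (limma 3.58.1), a replicate block, removal of length and GC trends (lowess, span 0.3), prior count 2 and leaving out each library. The fit was also run on simulated data, and no result above rests on that run.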

Additional observations from a re-analysis of the deposited data

How the results depend on the processing

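The alternatives were planned, except those of the partner ratios, which were added after seeing the data. METTL3 was called in each alternative. CHEK1, XRCC5, XRCC3 and TP53BP1 kept their direction in each of their 15 alternatives, and the call in 12, 13, 11 and 9 of them. With library size alone, 561 genes were called higher over the whole table (against 912), 1 repair gene higher and 3 lower (against 3 and 1), and 6 other repair genes higher and 5 lower (against 10 and 1). Without a low-count filter 2 repair genes were lower. With a mean CPM of at least 1, 4 other repair genes were lower. DESeq2 called 585 genes lower over the table (against 910), and 0 other repair genes lower. With the length trend removed 5 repair genes were higher and 0 lower, and 0 other repair genes lower; with length and GC removed these were 6, 0 and 0.

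Replicate numbers are shared by the groups, but the correlation of replicate differences between groups was 0.04 over 12282 genes, so the numbers were not taken as pairs. With the replicate block, the same 4 repair genes were called, with 1003 genes higher and 998 lower over the table, and 11 other repair genes higher and 2 lower.

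With 1 library left out, the lone library of a group is assumed to vary like the other group. Over the 4 such fits, repair genes called higher ran from 0 to 6 and lower from 0 to 4, other repair genes higher from 4 to 22 and lower from 0 to 10, and genes over the table higher from 261 to 1703 and lower from 326 to 1549. Each lowest count was reached without sh812 replicate 1 (3.28% of all genes called), some also without sh812 replicate 2, and each highest without shNC replicate 2 (18.1%).

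Some differences in genes that were not called changed sign, those of ATM (-0.188) and RAD50 (-0.158) among them. With library size alone BRCA1 was -0.043, RBBP8 -0.033 and FANCC -0.033, and BRCA1 was -0.002 with a mean CPM of at least 1. ERCC2 was 0.001 in DESeq2. With the length trend removed, and then with length and GC removed, values were 0.026 and 0.035 for BRCA2, 0.006 and 0.013 for BARD1, 0.062 and 0.070 for MRE11, 0.044 and 0.046 for FANCA, 0.015 and 0.015 for FANCI, -0.012 and -0.003 for FANCL and 0.037 and 0.032 for ERCC2, with FANCM at 0.006 in the second. With 1 library left out, ranges were -0.116 to 0.145 for BRCA1, -0.279 to 0.179 for BRCA2, 0 to 0.159 for PALB2, -0.153 to 0.012 for BARD1, -0.149 to 0.039 for XRCC2, -0.579 to 0.169 for RAD50, -0.069 to 0.029 for MRE11, -0.015 to 0.039 for RBBP8, -0.089 to 0.028 for FANCA, -0.060 to 0.100 for FANCC, -0.046 to 0.144 for FANCL, -0.194 to 0.008 for FANCM, -0.005 to 0.107 for XRCC6, -0.242 to 0.093 for PMS2, -0.295 to 0.058 for XPA, -0.202 to 0.003 for XPC, -0.047 to 0.037 for ERCC2 and -0.355 to 0.014 for ATM. For PALB2 the low end was 0 after rounding, so a change of sign is not shown for that gene. The cause of the changes was not tested.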
